A study of Mus musculus with 9 samples.

Results

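Gene expression was compared between 3 arrays of B/B-treated, annexin V-positive cells and 3 arrays of control cells, 6 of the 9 one-colour Affymetrix arrays of the study. All 9 arrays hold RNA of hMLKL1-181-2Fv-NIH3T3 cells, an NIH3T3 mouse fibroblast line that carries the 2Fv fusion of human MLKL named in the label. The treated cells received 50 nM B/B for 1 h and were sorted as AnnV+, and the control arrays are labelled only as control treatment. The other 3 arrays hold cells that were first treated and sorted likewise and then had 6 h of washout at 3000 nM, with no compound named. Every gene with a probe set that carries 1 gene symbol was followed, which gave 22180 genes, each read by its probe set of highest mean level over the 9 arrays. Neither a sort nor a harvest time is given for the control cells, so B/B, sorting and handling cannot be told apart. The labels also do not say whether the 3 arrays of a group came from separate cultures, and p-values then measure only the spread between these samples, which may be technical. No untransfected line and no B/B-treated cells outside the annexin V gate are among the 9 arrays.

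MLKL is the pseudokinase that executes necroptosis: once phosphorylated by RIPK3 it oligomerizes and permeabilizes the plasma membrane. B/B is a cell-permeable dimerizer that brings Fv domains together, so that an Fv fusion can be activated without the upstream receptor and kinases. Annexin V binds phosphatidylserine, a lipid normally kept on the inner leaflet of the plasma membrane, and ESCRT proteins can shed damaged membrane. Within the first hour of a strong stimulus, fibroblasts typically transcribe immediate-early genes, whose promoters are ready to fire without new protein synthesis, together with the phosphatases, inhibitors and RNA-decay factors that switch the response off.

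Of the 22180 genes, 642 (2.89%) differed at adjusted p under 0.05 in limma's moderated test, 224 of them higher (1.01%) and 418 lower (1.88%) at B/B 1 h. The higher genes moved further than the lower ones. Among genes that changed at least 2-fold, 24 were higher and 15 were lower, and the protein-coding ones among them were 21 and 2. Between 1.5-fold and 2-fold 42 were higher and 38 lower. Smaller changes were more often lower, with 83 higher and 165 lower between 1.25-fold and 1.5-fold and 75 and 200 below that. The median change was 1.32-fold for higher and 1.25-fold for lower genes. In bulk RNA, a smaller share of cells that express a gene and less of its RNA per cell cannot be told apart.

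A stricter set was formed from genes that also passed in each of the 6 fits leaving out 1 of the compared arrays and whose 3 and 3 arrays did not overlap. It held 258 genes (1.16%), 110 higher (0.496%) and 148 lower (0.667%), and genes named below come from it unless stated. Non-overlap alone was common, with 1996 genes higher (9.0%) and 2727 lower (12.3%). The count of 642 became 369 and 422 without B/B replicates 1 and 2, and 376, 372 and 323 without control replicates 1, 2 and 3. The share of called genes that were higher was 34.9%, against 48.0% after quantile normalization and 16.7% with each array centred on the median of the genes tested.

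Calls depended on the level of the gene. From the lowest to the highest quintile of genes by mean level, 12, 33, 93, 261 and 243 were called. The lower genes gathered in the fourth quintile, with 205 of its 4436 genes (4.62%), and the top quintile held the most higher genes, 98 (2.21%). The median difference of all genes was 0.0042, but it was 0.048 in the second quintile, 0.049 in the third and -0.054 in the fourth. These level-dependent shifts are smaller than the changes of the named genes, and their part in the many small lower calls was not tested. Protein-coding genes that rose were short, with a median annotated span of 9.97 kb against 15.6 kb for those that fell and 18.7 kb for all.

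**Figure D1:**
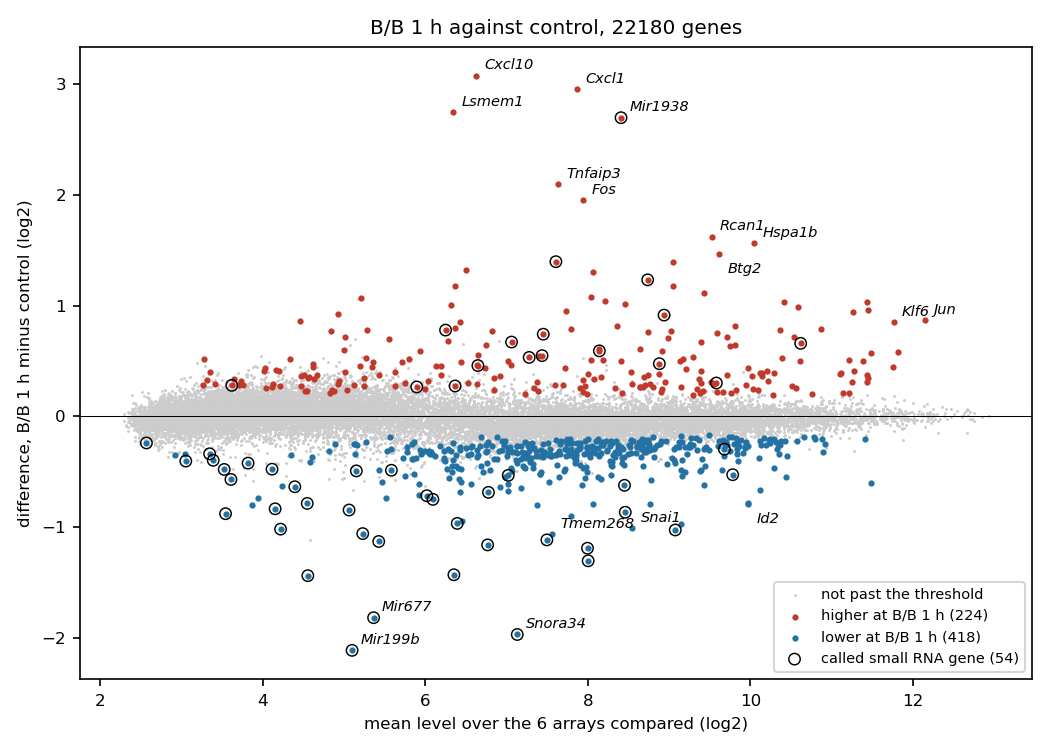
Difference between B/B 1 h and control (y, log2) against the mean level over the 6 arrays compared (x, log2) for 22180 genes. Red and blue points are the 224 higher and 418 lower genes and rings mark called small RNA genes. The tall points above 0 are protein-coding apart from a few small RNA genes, and most of the deep points below 0 carry a ring.

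Transcription factors of the immediate-early response held the densest group of higher genes. AP-1 is a dimer of FOS and JUN family proteins. Of its 14 measured subunits 6 were called higher and 1 lower (42.9% and 7.14%, against 1.01% and 1.88% of all genes). Fos read 6.97, 6.95 and 6.98 in the control arrays and 8.93, 8.94 and 8.88 at B/B 1 h, a 3.86-fold rise (difference 1.95 ± 0.082, SE, adjusted p = 2.7e-06). Jund rose 2.27-fold, from 8.47, 8.43 and 8.47 to 9.63, 9.63 and 9.65. Jun, already among the most highly measured genes at 11.70 to 11.75 in control, reached 12.54 to 12.64 (difference 0.87 ± 0.042, adjusted p = 5.6e-06). Junb rose by 0.65 and Fosb by 0.38. The member called lower was Mafg, a small MAF protein, at -0.34, which lost its call in some fits without 1 array.

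The EGR and NR4A factors are zinc finger and orphan nuclear receptors that are also switched on within minutes by growth factors and calcium. In this list 5 of 9 were called higher and 1 lower (55.6% and 11.1%, against 1.01% and 1.88% of all genes). The median difference was 0.45. Nr4a2 rose 2.02-fold (1.02 ± 0.055, adjusted p = 1.1e-05), from 7.88, 7.93 and 8.05 to 8.96, 9.002 and 8.95. Egr1 rose by 0.95 and Egr2 by 0.76. The 3 control arrays held 1 identical value for Egr2 (8.36) and for Nr4a1 (11.53), which may understate their spread. Nr4a1 and the dim Nr4a3, near 4.97, each rose by 0.45. The lower member was Nab2, which encodes a corepressor that binds EGR proteins: it fell from 10.68, 10.74 and 10.74 to 10.19, 10.16 and 10.16 (-0.55 ± 0.043, adjusted p = 1.4e-04). Egr1 and its corepressor gene therefore moved in opposite directions at 1 h.

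Kruppel-like factors split evenly, with 3 of 17 higher and 3 lower (17.6% each, against 1.01% and 1.88% of all genes). Klf6 rose by 0.85 and Klf2, a factor of quiescence and of vessel endothelium, by 0.79. Klf10, a gene known to respond to TGF-beta, fell from 9.81, 9.88 and 9.89 to 9.51, 9.50 and 9.50. Of 34 other immediate-early genes, 10 were higher and 3 lower (29.4% and 8.82%). Ier2 rose from 7.49, 7.50 and 7.50 to 8.42, 8.59 and 8.70 (1.08 ± 0.082, adjusted p = 1.2e-04). Next came Ifrd1 (0.81), Rhob (0.71), which encodes a short-lived small GTPase of endosomes, and Csrnp1 (0.67). The list also held Myc, which was measured with the growth regulators and rose by 0.53, as did its paralog Mycn at a far dimmer level of 4.98 to 5.05 in control.

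Genes that shut the response down rose beside the genes that start it. MAP kinase phosphatases dephosphorylate ERK, JNK and p38, and of 20 phosphatase and Sprouty-type feedback genes 7 were higher and 2 lower. Dusp1, a nuclear phosphatase of p38 and JNK, went from 10.94, 10.91 and 11.04 to 11.93, 11.88 and 11.96 (0.96 ± 0.048, adjusted p = 6.2e-06). Dusp8 rose by 0.55, the ERK phosphatase gene Dusp6 by 0.50 and Dusp10 by 0.41. Despite the 7 higher calls the median of the whole list was 0.0066, near that of all genes.

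Some factors that destroy short-lived mRNA rose as well. Among 17 decay regulators 4 were higher and 1 lower (23.5% and 5.88%, against 1.01% and 1.88% of all genes). The list median was -0.034. Zfp36 encodes tristetraprolin, which binds AU-rich elements in cytokine and immediate-early transcripts and recruits the deadenylase complex. It read 10.91, 10.95 and 10.91 in control and 11.87, 12.06 and 11.95 at B/B 1 h, a 2.05-fold rise (adjusted p = 7.2e-05). Its paralog Zfp36l1 rose by 0.41, whereas the paralog Zfp36l2 was called lower at -0.21, a call that was lost in each fit without 1 array. Btg2, an antiproliferative gene whose protein binds the deadenylase CAF1, rose 2.76-fold, from 8.86, 8.89 and 8.89 to 10.33, 10.41 and 10.29. Btg1 rose by 0.37.

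Among NF-kB genes 3 regulators were called higher, while none of the measured subunits was called. Of 25 NF-kB genes only these 3 passed, all higher, against 1.01% of all genes. The list median was 0.093, and 10 were higher and 6 lower at an unadjusted p under 0.05. Tnfaip3 encodes A20, the ubiquitin-editing enzyme that restrains TNF and Toll-like receptor signals. It went from 6.58, 6.47 and 6.71 to 8.82, 8.57 and 8.65, a 4.28-fold rise (2.10 ± 0.079, adjusted p = 1.4e-06). Nfkbiz, the nuclear IkB protein, rose 2.47-fold, and Nfkbia, the classical IkB-alpha, rose 2.04-fold from 9.87, 9.92 and 9.92 to 10.89, 10.96 and 10.94. These 3 genes are textbook NF-kB targets that feed back on the pathway.

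The chemokine changes were large and narrow: 4 of 33 measured chemokine genes were called, all higher (12.1%, against 1.01% of all genes). Cxcl10, a ligand of CXCR3 that attracts T cells, had the largest difference of all genes tested. Its arrays read 5.11, 5.12 and 5.04 in control and 8.12, 8.21 and 8.15 at B/B 1 h, an 8.40-fold rise (3.07 ± 0.043, adjusted p = 8.8e-10). Cxcl1, a neutrophil attractant that acts on CXCR2, rose 7.75-fold, from 6.46, 6.14 and 6.56 to 9.29, 9.34 and 9.39. Its neighbour Cxcl2 rose by 0.68 from a dim start of 5.79 to 6.04. The median over the 33 was 0.059. Of 42 interleukin, interferon and TNF ligand genes, 2 were called, both higher (4.76%, against 1.01% of all genes). Lif, an IL-6 family cytokine, went from 8.68, 8.63 and 8.59 to 9.34, 9.31 and 9.58 (0.77 ± 0.086, adjusted p = 0.00143).

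Growth factor genes were called in both directions, 5 higher and 2 lower of 38. Fgf18 rose 2.26-fold, from 5.90, 5.55 and 5.87 to 6.74, 7.04 and 7.06. Edn1, the precursor of the vasoconstrictor endothelin-1, rose 2.09-fold, with its control arrays spread between 4.33 and 4.91 and its B/B arrays between 5.55 and 5.93. Ccn1, a matricellular protein and target of YAP and SRF, rose by 0.57 at a level above 11. Vegfa, the angiogenic factor, instead fell from 11.02, 11.07 and 11.10 to 10.69, 10.78 and 10.74.

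**Figure D2:**
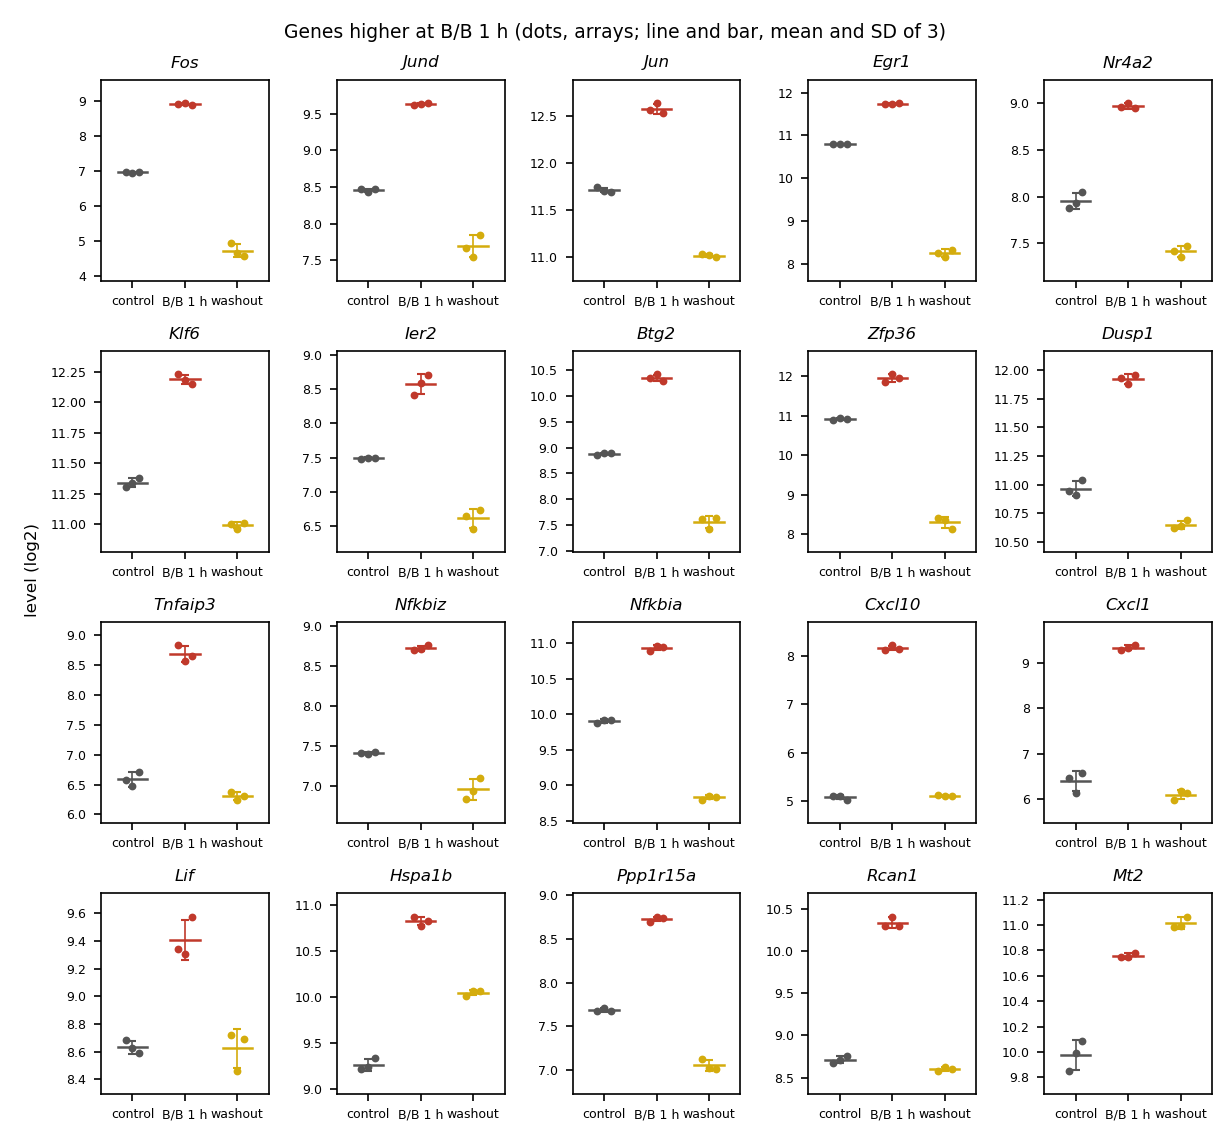
Level (y, log2) of 20 genes that rose, on each array of control, B/B 1 h and washout cells (x). Dots are arrays, lines are means and bars are SD of 3 arrays. The B/B 1 h dots lie above the control dots in each panel, and Fos, Egr1, Zfp36 and Tnfaip3 lie below control after washout.

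Promoter sequence was read for the most increased genes that hold a motif of a factor named above. RefSeq windows of 250 bases before the annotated start on GRCm38.p6 were matched for 16990 of the genes tested, 162 of them called higher and 308 lower. The genes below are shown because they rose most among genes with a match to the NF-kB, cAMP response element, AP-1 or CArG motif, each motif taken in turn, and capitals mark the match.

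Cxcl10 (chr5:92348890-92349139, minus strand): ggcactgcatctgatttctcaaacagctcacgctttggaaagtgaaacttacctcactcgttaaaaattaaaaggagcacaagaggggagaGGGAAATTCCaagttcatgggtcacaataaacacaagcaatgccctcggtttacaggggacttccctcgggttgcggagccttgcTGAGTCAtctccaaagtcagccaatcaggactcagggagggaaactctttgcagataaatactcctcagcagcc
Cxcl1 (chr5:90890995-90891244, plus strand): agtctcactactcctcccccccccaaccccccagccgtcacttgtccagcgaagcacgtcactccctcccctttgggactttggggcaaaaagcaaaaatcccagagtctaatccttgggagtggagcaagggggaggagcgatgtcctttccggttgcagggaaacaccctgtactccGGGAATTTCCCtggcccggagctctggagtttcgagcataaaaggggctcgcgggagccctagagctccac
Tnfaip3 (chr10:19015411-19015660, minus strand): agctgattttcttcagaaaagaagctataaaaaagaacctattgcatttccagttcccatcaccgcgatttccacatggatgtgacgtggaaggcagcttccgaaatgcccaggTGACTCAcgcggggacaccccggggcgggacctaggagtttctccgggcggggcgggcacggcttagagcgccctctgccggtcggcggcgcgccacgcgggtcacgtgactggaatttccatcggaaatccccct
Rcan1 (chr16:92400079-92400328, minus strand): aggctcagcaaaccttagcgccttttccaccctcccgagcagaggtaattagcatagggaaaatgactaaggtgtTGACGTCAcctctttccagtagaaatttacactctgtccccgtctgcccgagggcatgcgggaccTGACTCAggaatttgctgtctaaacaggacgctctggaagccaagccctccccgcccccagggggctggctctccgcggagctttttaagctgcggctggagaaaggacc
Btg2 (chr1:134079156-134079405, minus strand): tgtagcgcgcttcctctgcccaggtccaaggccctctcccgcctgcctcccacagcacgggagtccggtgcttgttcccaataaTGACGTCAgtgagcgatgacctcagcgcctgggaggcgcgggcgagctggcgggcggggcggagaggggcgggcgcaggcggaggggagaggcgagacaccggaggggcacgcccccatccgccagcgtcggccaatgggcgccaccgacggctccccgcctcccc
Zfp36 (chr7:28379229-28379478, minus strand): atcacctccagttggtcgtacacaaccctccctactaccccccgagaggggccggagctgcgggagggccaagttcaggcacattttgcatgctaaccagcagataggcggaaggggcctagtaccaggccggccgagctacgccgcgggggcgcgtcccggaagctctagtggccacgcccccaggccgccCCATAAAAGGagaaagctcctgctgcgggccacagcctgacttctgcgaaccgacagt

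Cxcl10 holds an NF-kB motif (GGGA, 2 bases of any kind, TTCC) that begins 159 bases before the start and an AP-1 motif (TGANTCA) at 74. Cxcl1 holds overlapping NF-kB matches on opposite strands at 71 and 70 bases. Rcan1 carries a cAMP response element (TGACGTCA) at 175 and an AP-1 motif at 110, and Btg2 carries the same response element at 166. Tnfaip3 holds an AP-1 motif at 136, and Zfp36 a CArG box, the site of serum response factor, at 58. Only the searched spelling is marked, so a site with other letters, such as an NF-kB variant in Tnfaip3 or Cxcl10, stays in lower case. A match is a string of letters and no binding was measured.

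Counted over both strands, the AP-1 motif lay in 25 of the 162 promoters of higher genes (15.4%), in 7.44% of all promoters and in 6.49% of those of lower genes. The response element TGACGTCA was in 10 promoters of higher genes (6.17%) against 2.3% of all, among them Rcan1, Btg2, Ppp1r15a, Dusp1, Dusp8 and Plk2. The NF-kB motif was in 8 (4.94%) against 1.35% of all, including Cxcl10, Cxcl1, Cxcl2, Nfkbia and Polg2. Among lower genes these shares were 1.62% and 0.974%. The CArG box stood at 1.85% of higher promoters and 1.49% of all, and an interferon element (GAAA, 2 bases, GAAA) at 5.56% and 3.4%. A metal response core (TGCNCNC) is so short that 50.5% of all promoters held it. A heat shock element (GAA, 2 bases, TTC, 2 bases, GAA) was in 0.506% of all promoters and in those of 0 of the 162 higher genes. No motif contains another, and these shares are descriptions without a test.

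Single receptor genes moved in either direction. Of 46 cytokine and pattern receptor genes 2 were higher and 2 lower (8.7% called, against 2.89% of all genes), and of 34 receptor tyrosine kinase and adaptor genes 1 was lower (2.94%). Cd14, the co-receptor of Toll-like receptor 4, rose from 7.85, 7.73 and 7.90 to 8.34, 8.45 and 8.52, and the adhesion molecule gene Vcam1 rose by 0.31. Ifnar1, a chain of the type I interferon receptor, fell by 0.27 on the log2 scale, and Ephb4 fell by 0.35. Of 34 G protein-coupled receptor and regulator genes 2 were higher and 2 lower (11.8%). The higher ones, Rgs2 (0.63) and Rgs16 (0.58), encode proteins that speed GTP hydrolysis by G protein alpha subunits, and P2ry2, the receptor for extracellular ATP and UTP, fell from 8.13, 8.17 and 8.17 to 7.85, 7.75 and 7.90.

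The interferon arm was not called although Cxcl10 rose. Among 28 interferon-stimulated genes limma called 0, and 3 were higher and 1 lower at an unadjusted p under 0.05. Their median difference was 0.015. Isg20 read 8.33, 8.34 and 8.46 in control and 8.43, 8.52 and 8.57 at B/B 1 h (0.13, 95% interval 0.012 to 0.25, adjusted p = 0.228). Among 27 STAT, IRF and SOCS genes 1 was higher and 5 were lower (3.7% and 18.5%, against 1.01% and 1.88% of all genes). Of the 5 lower genes 1 was in the stricter set. Differences in the list ran from -0.55 to 0.35, with a median of 0.0026. Stat2, a subunit of the interferon-stimulated factor ISGF3, rose from 6.56, 6.74 and 6.70 to 7.0002, 7.03 and 7.01 (0.35 ± 0.056, adjusted p = 0.0112). Irf2bp2, a transcriptional corepressor gene, fell by 0.34, a call that was lost when the probe sets of a gene were averaged. The antiviral kinase gene Eif2ak2, which encodes PKR and was listed with the initiation factors, fell from 6.51, 6.52 and 6.51 to 6.08, 6.05 and 5.97.

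Single stress genes rose in several branches, while the list medians lay between -0.048 and 0.052. Of 34 heat shock genes 3 were called, all higher (8.82%, against 1.01% of all genes), with a list median of 0.052. Hspa1b, the inducible HSP70, went from 9.22, 9.24 and 9.34 to 10.87, 10.77 and 10.83, a 2.95-fold rise (1.56 ± 0.048, adjusted p = 3.1e-07). Its co-chaperone gene Dnajb1 rose 2.17-fold, and Bag3 rose by 0.24 with little spread (9.89 to 9.91 against 10.14 to 10.15). Of 37 unfolded protein and integrated stress response genes 5 were higher and 1 lower (13.5% and 2.7%, against 1.01% and 1.88% of all genes). Their median was -0.041, and 5 were higher and 10 lower at an unadjusted p under 0.05. Ppp1r15a encodes GADD34, which returns the eIF2-alpha phosphatase to work: it rose from 7.67, 7.71 and 7.67 to 8.69, 8.75 and 8.74 (1.04 ± 0.045, adjusted p = 2.7e-06). Chac1 rose by 0.75, Ddit3, the gene of CHOP, by 0.59 and the ER co-chaperone gene Dnajb9 by 0.43. Hspa5, the ER chaperone BiP, rose by only 0.28, a gene chosen after its values were seen.

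Oxidative and metal stress genes split. Of 31 NRF2 and glutathione genes 4 were higher and 3 lower (12.9% and 9.68%). The list median was -0.040, with 4 higher and 10 lower at an unadjusted p under 0.05. The metallothionein genes Mt1 (0.72) and Mt2 (0.78), whose proteins bind zinc and copper, rose together, and Hmox1, haem oxygenase 1, went from 8.85, 8.84 and 8.96 to 9.36, 9.38 and 9.41. Sqstm1, the autophagy receptor p62, rose by 0.31. Slc7a11, the cystine importer that feeds glutathione synthesis, fell from 7.81, 7.74 and 7.77 to 7.399, 7.39 and 7.48, although its call was lost when probe sets were averaged. Of 24 p53 target genes 2 were higher and 1 lower (8.33% and 4.17%), with a list median of -0.048. Plk2 rose by 0.39, and Phlda3, a p53-induced inhibitor of AKT, fell from 9.46, 9.40 and 9.32 to 8.81, 9.07 and 8.85.

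Calcium and structural genes gave single strong members. Rcan1, the feedback inhibitor of calcineurin, rose 3.08-fold, from 8.67, 8.71 and 8.76 to 10.29, 10.41 and 10.30 (1.62 ± 0.047, adjusted p = 2.3e-07). It was the 1 higher of 38 calcium, calcineurin and NFAT genes, beside 1 lower (2.63% each, against 1.01% and 1.88% of all genes). Adamts1, a secreted protease that cleaves proteoglycans, rose from 10.03, 10.15 and 10.11 to 11.08, 11.11 and 11.06, and Plat, tissue plasminogen activator, rose by 0.60. Among 40 actin and SRF target genes 2 were higher and 1 lower (5.0% and 2.5%), with Flnc, filamin C, higher by 0.39. Of 28 cholesterol and fatty acid synthesis genes, 2 were called and both were higher (7.14%), Hmgcs1 by 0.40 and Insig1 by 0.34. Brd2, a bromodomain protein gene, was the higher one of 42 chromatin genes, at 0.31, with 1 lower (2.38% each).

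Of the 642 called genes, 400 belonged to none of the 60 lists. Lsmem1 led those, from 5.13, 4.86 and 4.93 in control to 7.95, 7.49 and 7.70, a 6.69-fold rise (2.74 ± 0.13, adjusted p = 4.2e-06). Tcim rose 2.63-fold and Polg2, the accessory subunit of the mitochondrial DNA polymerase, 2.50-fold, from 5.58, 5.99 and 5.95 to 7.33, 6.99 and 7.17. Sat1, the rate-limiting enzyme of polyamine breakdown, rose from 10.44, 10.51 and 10.47 to 11.30, 11.28 and 11.22. Tnfaip6, a hyaluronan-binding protein induced by TNF, rose by 0.71. The remaining genes of the 15 highest outside the lists were Rnf225, Atp6v1fnb, Plet1, Kctd4, Slc5a5, H2bc22, Ampd1, Cd79a, Mrgpra1 and Pnrc1, between 0.54 and 0.95. Several of these are known from other tissues and were dim here: Ampd1, the AMP deaminase of muscle, read 4.53 to 4.73 in control and 5.27 to 5.43 at B/B 1 h, and Cd79a, a B cell receptor chain, read 5.11 to 5.30 and 5.75 to 6.02.

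Lower genes included several short-lived regulators of transcription. ID proteins are helix-loop-helix factors without a DNA-binding region that block differentiation factors, and they are classical targets of BMP and SMAD signals. In the list of 36 TGF-beta, BMP, SMAD and ID genes 5 were called, all lower (13.9%, against 1.88% of all genes). The list median was -0.047. Id2 fell from 10.30, 10.40 and 10.41 to 9.57, 9.56 and 9.61, 1.73-fold lower (-0.79 ± 0.043, adjusted p = 1.2e-05). Id1 fell by 0.56 and Id3 by 0.50, and Smad7, the inhibitory SMAD, went from 9.65, 9.64 and 9.59 to 9.04, 9.17 and 9.17.

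Hes1, a repressor downstream of Notch, fell from 9.14, 9.13 and 9.21 to 8.36, 8.39 and 8.39 (-0.78 ± 0.049, adjusted p = 3.0e-05). It was the lower one of 25 Notch genes, with 1 higher (4.0% each, against 1.88% lower and 1.01% higher of all genes). Bhlhe40, a clock repressor that answers many stimuli, fell 1.72-fold, from 10.33, 10.33 and 10.42 to 9.57, 9.56 and 9.60. In all, 3 of 19 clock genes were called, all lower (15.8%), with a median of -0.084. Fzd7, a Wnt receptor, fell by 0.50 as 1 of 2 lower genes among 40 of the Wnt pathway (5.0%). Snai1, the repressor of E-cadherin, fell 2.01-fold, from 8.99, 9.06 and 9.09 to 8.002, 8.07 and 8.06, and with Tmem268 it was the only protein-coding gene that fell at least 2-fold.

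Further transcription regulators stood among the 15 lowest genes outside the lists. Gadd45b, a growth arrest gene responsive to TGF-beta, fell from 10.34, 10.49 and 10.50 to 9.73, 9.80 and 9.83. Atoh8 (-0.60), Zbtb43 (-0.59) and Foxs1 (-0.52) encode DNA-binding factors. Vasn, at -0.54, encodes vasorin, a membrane protein that traps TGF-beta. Tmem268 was the lowest protein-coding gene, going from 8.08, 8.08 and 8.10 to 6.97, 6.91 and 7.19 (-1.06 ± 0.067, adjusted p = 3.2e-05). Rabggtb, a subunit of the enzyme that prenylates RAB proteins, fell by 0.90, and the matrix proteoglycan gene Ogn by 0.67. Clba1, Taok2, Cgref1, Mtx3, Polr3g and Ttll7 completed the 15, between -0.64 and -0.54.

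**Figure D3:**
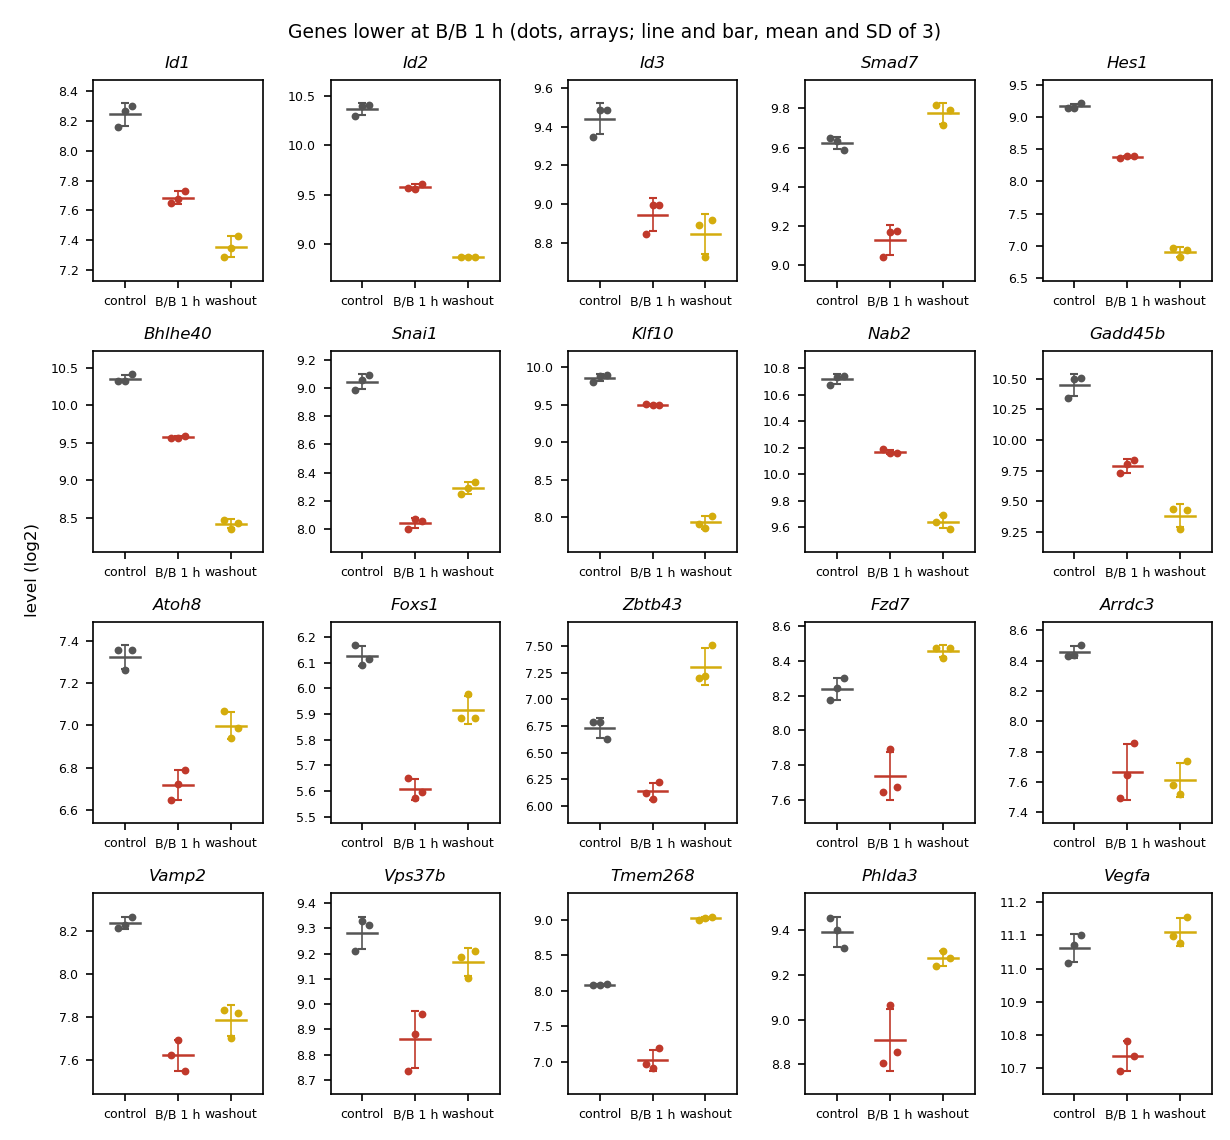
Level (y, log2) of 20 genes that fell, on each array of control, B/B 1 h and washout cells (x), with means as lines and SD of 3 arrays as bars. The B/B 1 h dots lie below the control dots in each panel, and after washout Smad7, Fzd7, Zbtb43 and Tmem268 lie above control while Id2, Hes1 and Klf10 lie further below it.

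Zinc finger genes with numbered Zfp symbols include many repressors of the KRAB type. Of 336, 18 were lower (5.36%) and 2 higher, against background shares of 1.88% and 1.01%, and the list median was -0.044. Zfp606 fell from 6.18, 6.18 and 6.33 to 5.58, 5.75 and 5.52, and Zfp84 from 7.75, 7.82 and 7.87 to 7.16, 7.19 and 7.31. Zfp334 fell by 0.45 and Zfp930 by 0.42. One of the 2 higher is Zfp36, described above, which is a CCCH protein that binds RNA. The level-dependent shift of the median applies to these genes too, and its part in this count was not tested.

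Ubiquitin and traffic genes fell where they were called. Among 42 ubiquitin ligase and deubiquitinase genes 6 were called, all lower (14.3%, against 1.88% of all genes). Of these, 2 were in the stricter set, and the list median was -0.064. Arrdc3, an arrestin that recruits NEDD4 ligases to receptors, fell from 8.43, 8.44 and 8.50 to 7.50, 7.65 and 7.86 (-0.79 ± 0.090, adjusted p = 0.00158). Kctd10, a cullin 3 adaptor, fell by 0.28. Of 40 SNARE, RAB and traffic genes 2 were called, both lower (5.0%), and 1 was in the stricter set. Vamp2, a vesicle SNARE, went from 8.22, 8.23 and 8.27 to 7.62, 7.69 and 7.55.

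In large housekeeping families the calls were few and all lower. Of 67 cytosolic ribosomal protein genes 1 was called, Rpl37, which fell by 0.55 and lost its call without moderation and when only the 2 groups were fitted. Lower were 3 of 71 mitochondrial ribosomal protein genes (4.23%), 3 of 74 respiratory chain genes (4.05%), 1 of 38 proteasome genes (2.63%) and 2 of 50 initiation factor genes (4.0%), against 1.88% of all genes. Among splicing factors 2 of 40 were lower (5.0%), with Srsf9 at -0.37. The median of the proteasome list was -0.061 and that of the mitochondrial ribosome list -0.048, close to the -0.054 of all genes in the fourth quintile by level. Of 38 replication and mitosis genes 1 was lower (2.63%). Of 36 G1 regulators 2 were higher (5.56%) and 3 lower (8.33%), among the latter E2f8 at -0.36. Remaining lists had few calls by number, but in several the share called was above the 2.89% of all genes. These were the Hippo-YAP, extracellular matrix, lysosome and autophagy, integrin, hypoxia and amino acid lists. Of 25 Hippo-YAP genes 3 were called, all higher, against 1.01% of all genes, with 1 in the stricter set. Of 36 extracellular matrix genes 2 were higher and 1 lower (8.33% called), none in the stricter set. Of 43 lysosome and autophagy genes 2 were called, both higher. Integrin (29 genes) and hypoxia (32 genes) lists had 1 in each direction, and of 30 amino acid transport and tRNA synthetase genes 1 was called, Slc7a11. Olfactory receptor genes, silent in fibroblasts, gave 6 higher and 1 lower of 1105 (0.633%), and vomeronasal receptor genes 1 and 1 of 285 (0.702%).

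Few genes of the death pathway and of membrane repair were called. Of 29 necroptosis and death receptor genes 1 was higher and 1 lower (6.9% called, against 2.89% of all genes), neither in the stricter set. Mlkl read 9.66, 9.52 and 9.67 in control and 9.46, 9.48 and 9.53 at B/B 1 h, groups that overlap (-0.13, 95% interval -0.25 to -0.0063, adjusted p = 0.247). Whether this probe set also reads the human fusion was not examined. Ripk3 was dim, between 4.27 and 4.70 in control and between 4.28 and 4.58 at B/B 1 h, with an adjusted p of 0.817. Ripk1 was not analysed here. Of 32 ESCRT genes 1 was called (3.12%), Vps37b, a subunit of ESCRT-I, which fell from 9.21, 9.33 and 9.31 to 8.74, 8.88 and 8.96 (-0.42 ± 0.064, adjusted p = 0.0084). Among 38 scramblase, flippase and annexin genes limma called 0, with 0 higher and 3 lower at an unadjusted p under 0.05. Anxa5, the gene of annexin V, differed by 0.0001, with a 95% interval of -0.084 to 0.085. Of 19 BCL-2 family genes 2 were called (10.5%), both lower and neither in the stricter set.

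The labelled fibroblast identity was checked on markers. The mean level of 14 fibroblast markers was 9.36 to 9.37 in control and 9.36 to 9.40 at B/B 1 h, with Vim at 12.93 in both groups, and 2 of them (Lum and Postn, named after their values were seen) lay in the lowest 30% of genes by level. Limma called 0 of the 14, with 4 higher and 2 lower at an unadjusted p under 0.05. Means of 11 epithelial markers were 4.68 to 4.72 and 4.71 to 4.80, and of 11 endothelial markers 4.39 to 4.47 and 4.46 to 4.59. Limma called 0 in either list, with 1 epithelial marker higher and 4 endothelial markers higher and 1 lower at an unadjusted p under 0.05. Of 15 leukocyte markers 3 were higher, and their mean was 4.43 to 4.50 in control and 4.52 to 4.60 at B/B 1 h. The 3 were Cd14 and Cd68, which read 7.67, 7.87 and 7.82 against 8.22, 8.31 and 8.36, and Adgre1, dim at 3.27 and outside the stricter set. Ptprc, the pan-leukocyte CD45 gene and also named after its values were seen, stood at 3.39 in control and 3.35 at B/B 1 h, among the lowest levels of the table.

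**Figure D4:**
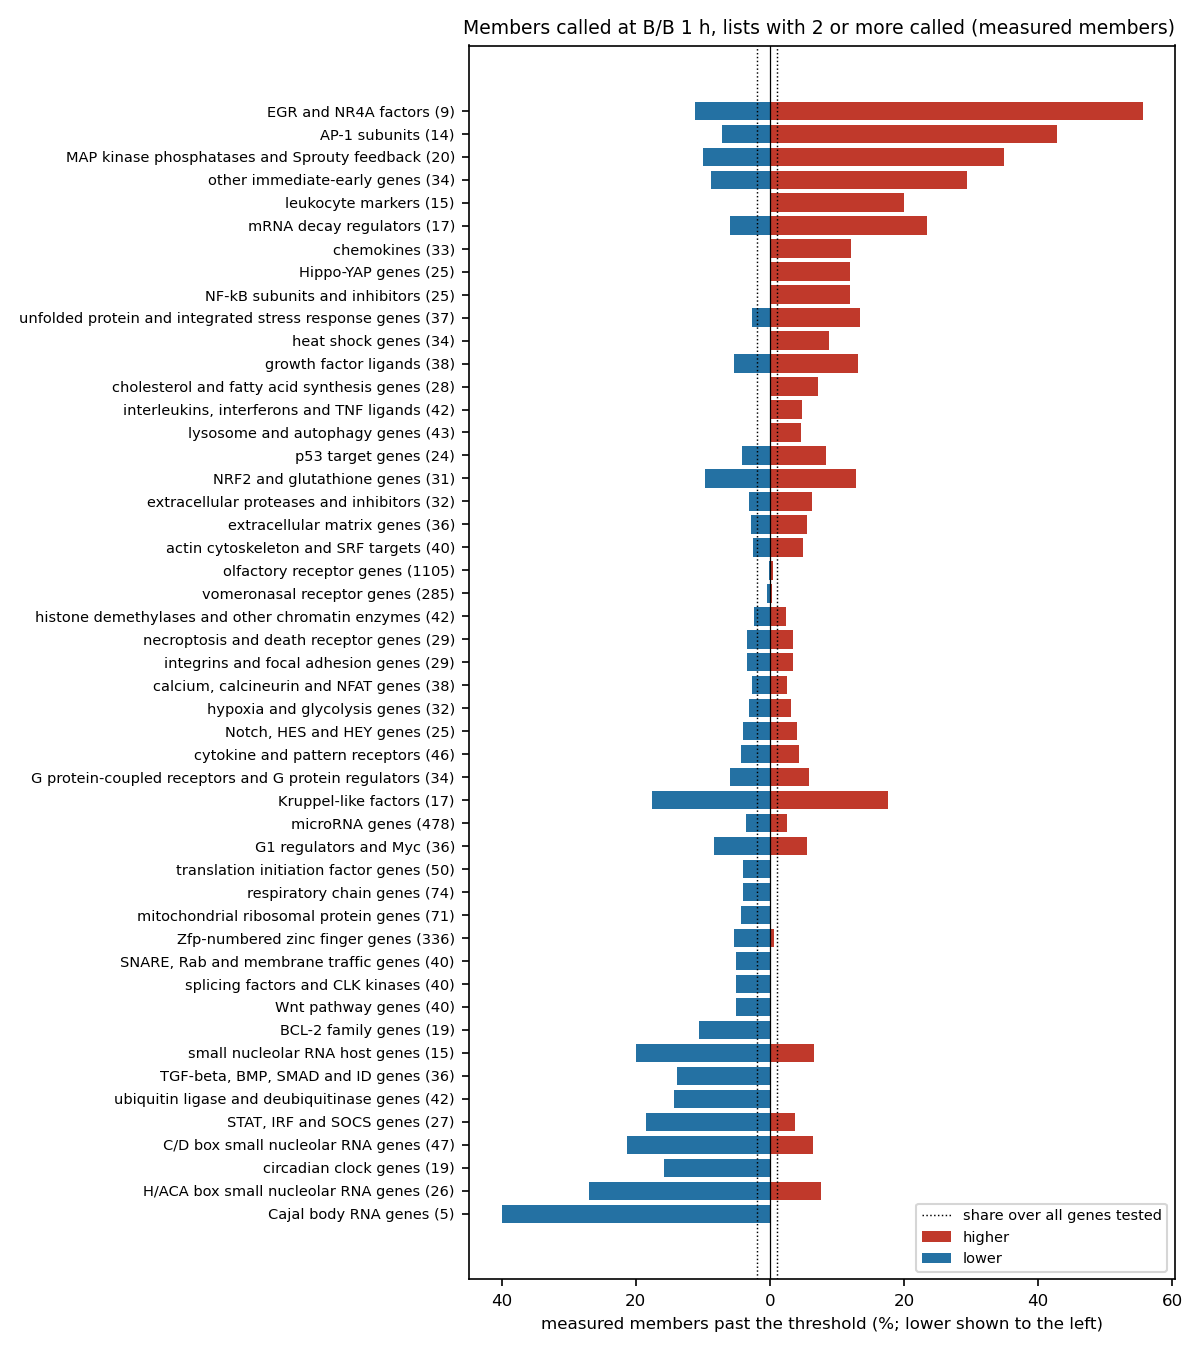
Share of the measured members of each list (measured number in brackets) that were called higher (red, to the right) or lower (blue, to the left), in percent, for lists with at least 2 called. Dotted lines mark the shares over all genes, 1.01% higher and 1.88% lower. EGR and NR4A factors, AP-1 and feedback phosphatases reach furthest right, and Cajal body, H/ACA box and C/D box RNA genes reach furthest left.

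Small RNA genes were called more often than protein-coding genes, most of them lower. Of 80 small nucleolar RNA genes 5 were higher and 16 lower (26.2% called), and of 478 microRNA genes 12 were higher and 17 lower (6.07%), against 2.92% of 18964 protein-coding genes. MicroRNAs guide silencing complexes to transcripts through a seed, and small nucleolar RNAs guide the methylation (C/D box) or pseudouridylation (H/ACA box) of ribosomal RNA. The labels do not say whether these probe sets read hairpin, primary or mature RNA. Mature sequences from RefSeq are shown for microRNA genes that changed most or share a seed, with bases 2 to 8 in capitals.

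miR-1938: cGGUGGGAcuuguaguucgguc
miR-23a-3p: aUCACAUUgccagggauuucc
miR-27a-3p: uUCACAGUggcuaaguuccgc
miR-99b-5p: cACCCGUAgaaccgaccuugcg
miR-18a-5p: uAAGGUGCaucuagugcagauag
miR-19a-3p: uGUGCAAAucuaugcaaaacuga
miR-19b-3p: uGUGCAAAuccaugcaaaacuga
miR-29a-3p: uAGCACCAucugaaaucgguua
miR-130a-3p: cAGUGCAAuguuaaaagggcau
miR-301a-3p: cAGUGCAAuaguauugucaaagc
miR-199a-3p: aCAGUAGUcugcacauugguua
miR-199b-3p: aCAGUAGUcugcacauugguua
miR-365-3p: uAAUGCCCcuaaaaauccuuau
miR-677-5p: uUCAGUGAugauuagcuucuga

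miR-130a-3p and miR-301a-3p share the seed AGUGCAA, and both of their genes fell, Mir130a by 0.48 and Mir301 by 0.57. Both lay in the lowest 30% of genes by level, and Mir130a lost its call in some fits without 1 array. miR-19a-3p and miR-19b-3p share GUGCAAA, and Mir19a fell by 1.44 while Mir19b-2, outside the stricter set, fell by 0.24. miR-199a-3p and miR-199b-3p are identical, with the seed CAGUAGU: Mir199b had the largest fall of all genes tested and Mir199a-1 fell by 0.49, outside the stricter set. A shared mature sequence means that a probe set to 1 gene could read RNA of the other.

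Among higher microRNA genes, Mir1938 went from 7.09, 6.99 and 7.11 to 9.86, 9.61 and 9.80, a 6.47-fold rise (2.69 ± 0.067, adjusted p = 9.2e-08). Mir27a rose 2.35-fold, from 8.05, 8.07 and 8.24 to 9.39, 9.07 and 9.60. Its cluster neighbour Mir23a rose by a like amount, from 6.91, 6.89 and 6.92 to 8.45, 7.95 and 8.51, but lost its call without B/B replicate 1 or control replicate 3. Mir99b rose by 0.53, and its call was lost without moderation. Mir199b fell from 5.99, 6.13 and 6.34 to 3.76, 4.04 and 4.34 (-2.11 ± 0.22, adjusted p = 9.2e-04). Mir677 fell 3.52-fold, from 6.07, 6.25 and 6.49 to 4.53, 4.54 and 4.30.

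In the Mir17 to Mir92 cluster, known for oncogenic microRNAs made from 1 transcript, the members moved unequally. Mir19a fell from 5.25, 5.25 and 5.32 to 3.61, 3.70 and 4.20, and Mir18 fell 2.08-fold, while Mir17 (-0.075, adjusted p = 0.59) and Mir20a (-0.11, adjusted p = 0.398) were not called and lay in the lowest 30% of genes by level, a comparison chosen after these values were seen. Mir29a, whose family represses collagen genes, fell by 0.88 and also lay in the lowest 30%. Mir365-1 fell by 1.02, and its neighbour Mir193b, outside the stricter set, stood at -0.78.

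C/D box RNA genes had 3 of 47 higher and 10 lower with a median of -0.32, and H/ACA box RNA genes 2 of 26 higher and 7 lower with a median of -0.21. Snora34 fell from 8.11, 8.12 and 8.11 to 5.78, 6.27 and 6.39, 3.90-fold lower (adjusted p = 5.1e-04). Snord110 fell 2.69-fold and Snora44 by 1.30. Both Y RNA genes measured, Rny1 and Rny3, whose RNAs bind the Ro60 protein, fell, Rny3 from 8.59, 8.64 and 8.54 to 7.07, 7.70 and 7.44. Of 5 Cajal body RNA genes 2 were lower, Scarna6 by 1.16. Against this trend Snora28 rose from 8.39, 8.65 and 8.40 to 9.45, 9.29 and 9.44. B/B replicate 1 was the lowest of its group for Snora34, Snord110 and Rny3, and it also had the lowest array weight of the 9, 0.563.

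Many of these small RNA genes lie within the annotated span of a longer gene, and strand and intron position were not checked. Of 23 called nucleolar and Cajal body RNA genes 19 lay in the span of a tested gene. The spans belonged to 18 longer genes, and 1 of them was called, Rpl37 (2.89% of all genes were called). The 16 lower ones had a median of -0.79 and the genes around them a median of -0.037. The small RNA genes entered this comparison because they were called lower, while the genes around them were not selected. A gap between these medians was thus fixed in advance. Over all 80 small nucleolar RNA genes the median was -0.22. For microRNA genes, 18 of 29 called ones lay in such a span, with 1 of the longer genes called, Ifrd1. The 9 lower ones had a median of -0.49 against -0.029 in the genes around them. The same selection applies here, and the median over all 478 microRNA genes was 0.0043. Snora44 and Snora16a, at -1.30 and -0.86, lie in the span of Snhg12, which differed by 0.10 (adjusted p = 0.31). Snhg20, one of 3 lower of 15 small nucleolar RNA host genes, fell by 0.80, from 7.69, 7.75 and 7.87 to 6.99, 6.99 and 6.94. Whether the small RNAs are made from these longer transcripts was not tested.

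**Figure D5:**
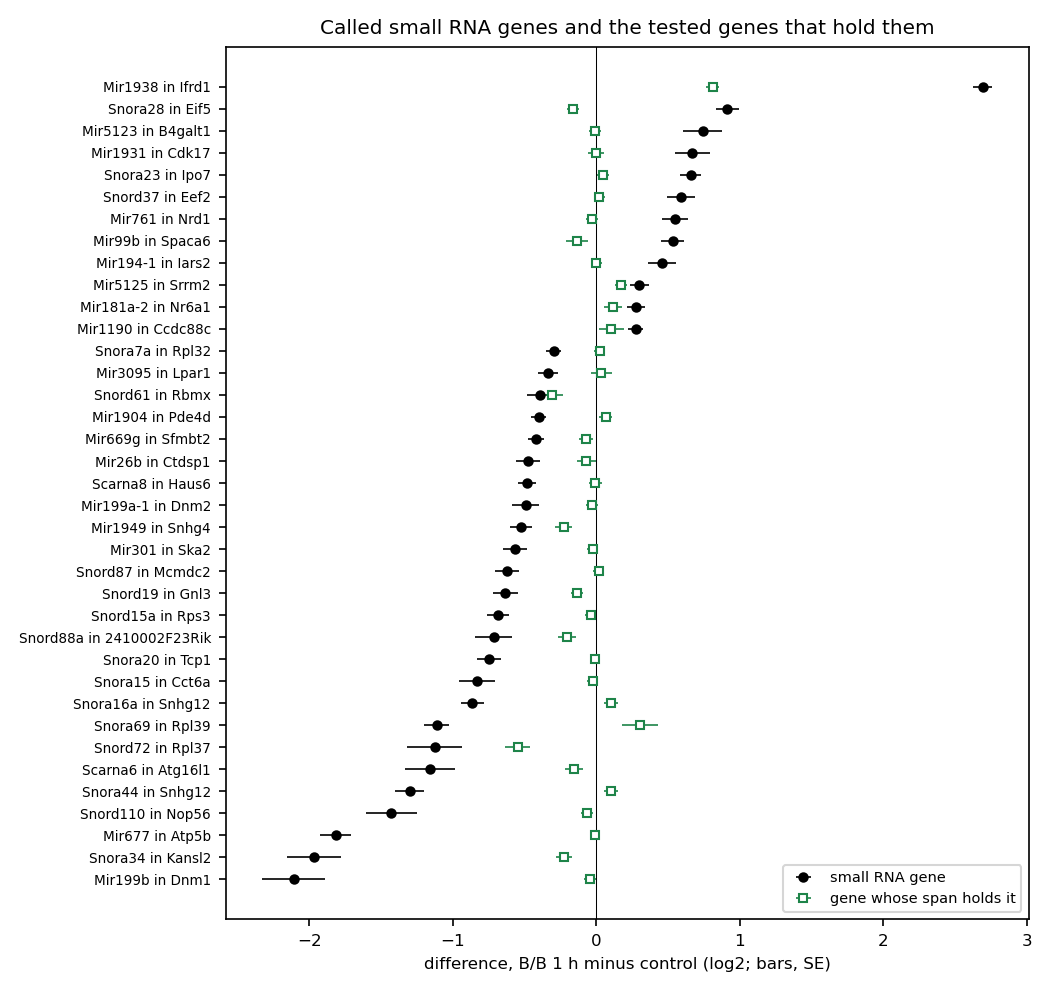
Difference between B/B 1 h and control (x, log2, bars SE) for called small RNA genes (filled dots) and the tested genes whose span holds them (open squares), 1 pair a row. The squares lie near 0 apart from Ifrd1, Rpl37 and a few others, while the dots run from Mir199b at -2.11 to Mir1938 at 2.69. Dots are shown because they were called and squares were not selected, so this gap was fixed in advance.

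Some changes shared a locus. Of the 224 higher genes, 17 (7.59%) had another higher gene within 20 kb, and of 415 lower genes with a position 28 (6.75%) had a lower one. The same share for genes taken at random was not computed, so these shares do not measure clustering. They also count nested genes, such as Mir1938 in Ifrd1 and Snord72 in Rpl37. On chromosome 12, Ifrd1 (0.81), Mir1938 inside it (2.69) and the adjacent Lsmem1 (2.74) rose together. The other higher neighbours included Cxcl1 with Cxcl2 on chromosome 5, Mt1 with Mt2 and Mir23a with Mir27a on chromosome 8, and Dusp10 with 1700056E22Rik (0.64) on chromosome 1. Lower neighbours included Rpl37 with Snord72 (-1.13) on chromosome 15 and Rny1 with Rny3 on chromosome 6. Genes named in no other paragraph were picked with their values in view.

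The washout arrays, which were sorted and treated alike before 6 h of washout, place these genes in time as a description without a test. Cxcl10 stood at 5.12 on each of the 3 washout arrays, the level of control. Tnfaip3 stood at 6.25 to 6.37, below its control arrays. Fos read 4.94, 4.66 and 4.57, Egr1 8.15 to 8.33 and Zfp36 8.15 to 8.40, all below their control arrays. Metallothionein Mt2 (10.99 to 11.07), Hmox1 (9.81 to 9.90) and Cd14 (9.27 to 9.32) lay above their B/B 1 h arrays. Among lower genes, Id2 (8.86 to 8.87), Hes1 (6.82 to 6.97) and Bhlhe40 (8.36 to 8.47) lay below B/B 1 h, while Smad7 (9.72 to 9.82) and Tmem268 (8.997 to 9.04) lay above control. Plat reached 10.55 to 10.68 and Slc7a11 10.75 to 10.84, the latter after its lower level at 1 h. Immediate-early genes that were higher at 1 h and regulators that were lower at 1 h thus include genes that lay below control after washout.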

How the data were processed

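Trizol RNA was turned into biotin-labelled cRNA for 1-colour arrays, per the labels' protocols. The deposited values were log2 probe set levels that the authors had already summarised and normalized, with array medians of 4.60 to 4.68. The tool was Partek 6.6, per the submitters' processing notes. How it summarised and normalized is not given in the sources used here. Base 2 was inferred from the range of the values, which limits every fold printed. Exactly equal deposited values on at least 2 of 3 arrays occurred in 13.0% of genes in control and 11.6% in B/B 1 h, and on all 3 in 351 and 273 genes, so that some spreads may be understated.

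The table holds 41345 probe sets, and 23521 of them have 1 symbol, 1814 have several and 16010 have none. Those with 1 symbol gave 22180 genes, 1082 of them with over 1 probe set. RefSeq tables of GRCm38.p6 matched 21994 genes and gave biotypes, neighbours, promoters and microRNA sequences. A group-mean model over all 9 arrays was fitted with limma 3.58.1 in R 4.3.3 (6 residual and 3.38 prior degrees of freedom, median standard error 0.0636), with Benjamini-Hochberg adjustment over all genes. No batch is named in the labels. The number of arrays limits the precision. Correlations across genes were 0.9983 to 0.9984 between control arrays, 0.9977 to 0.9984 between B/B arrays and 0.9959 to 0.9976 between the groups.

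The genes followed and the 60 gene lists were chosen with earlier results of these data known, so lists are described by counts and medians only. Named genes were, per list, up to 4 higher and 4 lower among those called in all fits without 1 compared array and without overlap of the groups, the 15 highest and 15 lowest protein-coding ones outside the lists, leaving out predicted-gene names, up to 2 bright examples of lists with no call, and Mlkl and Ripk3. Alternatives were other normalization and centring, gene filters, variance settings, array weights, 2 groups only, a threshold of 0.01, averaged probe sets and each array left out. On simulated data with 200 of 22180 genes changed, this comparison recovered 40% of genes changed 1.25-fold, 84% at 1.5-fold and 100% at 2-fold and 4-fold, with 50 genes at each size.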

Additional observations from a re-analysis of the deposited data

How the results depend on the processing

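The count of called genes was 642, 224 higher and 418 lower. It was 975 with each array centred on the median of the genes tested (an alternative chosen after seeing the data), 359 with only the 2 groups fitted, 1228 with a variance trend and 239 at an adjusted p under 0.01. Higher genes numbered 137, 368 and 103 in the last 3 of these, and lower genes 812, 222, 860 and 136 in all 4, with 650 when the lowest 30% of genes were left out. The share of called genes that were higher was 34.9%, 16.7% with that centring and 48.0% after quantile normalization. With each of the 9 arrays left out in turn, called genes numbered 323 to 691, higher ones 149 to 245, lower ones 174 to 446 and those changed at least 2-fold 33 to 43, and the share higher was 35.5% to 46.1%. Without control replicate 3 the count was 323, and without control replicates 1 and 2 and B/B replicates 1 and 2 it was 376, 372, 369 and 422. The cause of these shifts was not tested, apart from the stricter threshold. The 139 named genes with a call were chosen for keeping it without any 1 of the 6 compared arrays, so those fits say nothing about their stability. In the other settings at the 0.05 threshold 133 kept it wherever they were tested. Without moderation 4 lost it (Mir99b, Mrgpra1, Rpl37 and Scarna6), with only 2 groups 1 did (Rpl37), and with probe sets averaged 2 did (Irf2bp2 and Slc7a11). The variance trend added Fn1 (0.13), and the centring added Cdh5 (-0.30). Median differences of all genes were 0.0042, 0.015 after quantile normalization, -0.012 with array medians centred and -0.047 with that centring. An alternative for linear values was not run because the values are log2. No paired analysis was possible because the labels carry no replicate numbers. Few dim genes were called, 0.346% of the lowest 30% by level, and the cause was not tested.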
